A study of Mus musculus with 10 samples.

Results

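The 5 libraries of lung squamous cell carcinoma (SCC) of this series of 10 mouse libraries were described on their own, as levels and as spread from library to library. They were taken by their tissue label, which reads lung squamous cell carcinoma in the columns D36, D39, D42, D44 and E57, here called SCC 1, SCC 2, SCC 3, SCC 4 and SCC 5. The carcinomas came from wild-type mice of the NIH Swiss stock treated with NTCU, a nitrosourea carcinogen, and the other 5 libraries (normal 1 to normal 5) from the lung of untreated wild-type mice of the same stock. All regions were cut by laser out of sections fixed in formalin and embedded in paraffin. The RNeasy FFPE kit gave the RNA, which was sequenced as total RNA with the SMARTer Stranded Pico Input kit. The labels do not say which libraries share an animal, nor the age of the animals, so the spread between libraries may be biological or technical and these cannot be told apart.

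Squamous cell carcinoma is a tumour whose cells take on the program of a stratified epithelium. Basal cells of such an epithelium carry the transcription factor p63, the keratin pair Krt5 and Krt14 and the hemidesmosomes that hold them to the basement membrane. Cells that leave the basal layer switch to other keratins and make desmosomes, protease inhibitors and the small proline-rich proteins of the cornified envelope. Club cells, by contrast, are secretory cells of the mouse airway and are known for secretoglobins and for enzymes that metabolise foreign compounds.

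Depth and the counts on silent genes differed among the 5 libraries and touch every result below. Total counts were 1060726, 3691806, 1816675, 1004105 and 2449172 in SCC 1 to SCC 5. Chemosensory receptor genes, which serve smell and are silent in lung, were used as a gauge (1439 genes). Per kb of coding sequence they had 3.25, 0.591, 3.29, 3.52 and 0.421 CPM (counts scaled to the library total) in SCC 1 to SCC 5, against 0.0415 to 0.206 in normal lung. SCC 1, SCC 3 and SCC 4 thus stood apart from SCC 2 and SCC 5. If every gene carried such counts in proportion to its length, they would make up 13.0%, 2.37%, 13.2%, 14.1% and 1.68% of the counts by coding length, or 32.4%, 5.89%, 32.8%, 35.1% and 4.2% by the length of all annotated exons. A set of 47 genes of other tissues (retina, egg coat, pancreas and the like) had 204, 223, 591, 335 and 111 counts, where the exon-length rate gives 350, 221, 606, 359 and 105 and the coding-length rate 163, 103, 281, 166 and 48.6. The exon-length rate was close to what was counted in SCC 2 to SCC 5 and too high in SCC 1. In normal 1 to normal 5 the same genes had 182, 64, 113, 86 and 128 counts. There the exon-length rate gives only 11.8, 22.4, 30.3, 18.1 and 30.5. The set thus held counts beyond the receptor signal in normal lung, so it cannot decide which rate holds in SCC. Below, the background share of a gene is the counts expected by exon length as a percent of those counted, both summed over the 5 libraries. Deeper libraries weigh more in these sums, so the share can be higher in SCC 1, SCC 3 and SCC 4 taken alone. The source of these counts was not tested.

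**Figure D1:**
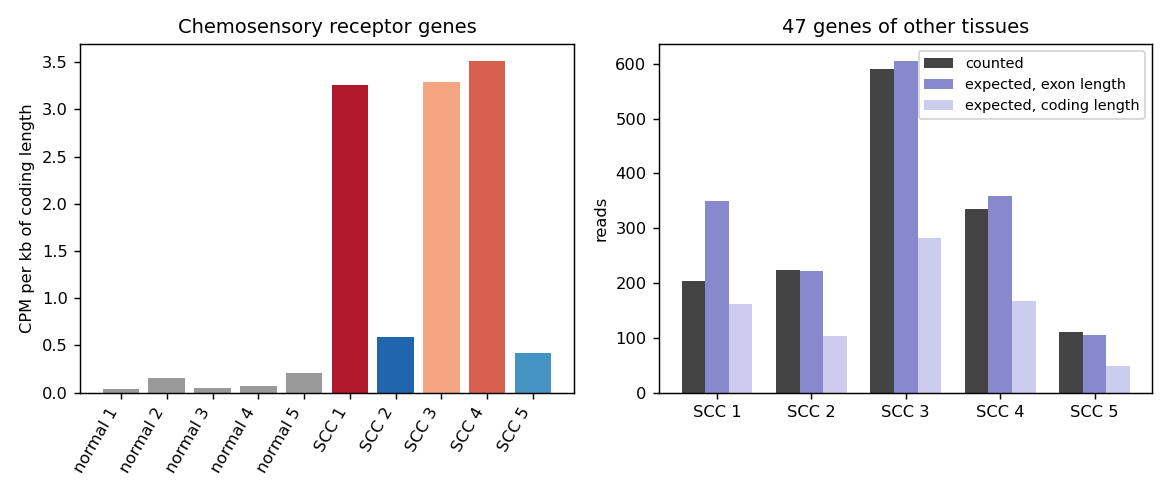
Left, counts on chemosensory receptor genes in each of the 10 libraries, as CPM over kb of coding sequence, with gray bars for normal lung and coloured bars for SCC. Right, reads counted on 47 genes of other tissues in each SCC library beside the reads expected from the receptor signal by exon length and by coding length. SCC 1, SCC 3 and SCC 4 stand at 3.25 to 3.52 and SCC 2 and SCC 5 at 0.591 and 0.421.

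No pair of the libraries matched within counting error. SCC 3 and SCC 4 were the closest pair (chi-square over degrees of freedom 3.05, 17127 genes), against 13.2 or more for every other pair. Of 8799 genes whose mean reached 20 CPM, 95.3% lay within 2-fold of each other in SCC 3 and SCC 4, 65.0% in SCC 2 and SCC 5, and 44.3% in SCC 4 and SCC 5, the pair farthest apart by this measure.

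All 5 libraries carried the squamous and basal cell markers. Krt5, a basal cell keratin (chromosome 15, 101707070 to 101712898, GRCm38), was at 384, 561, 199, 335 and 1596 CPM in SCC 1 to SCC 5. Krt6a, a keratin of activated and squamous epithelium (chromosome 15, 101689910 to 101694307), was at 351, 206, 162, 129 and 1015 CPM. Krt4, a keratin of the upper layers of moist stratified epithelium (chromosome 15, 101918535 to 101924735), was at 1082, 639, 269, 400.3 and 2146 CPM. All 3 keratins were highest in SCC 5 and 7.90-fold to 8.0-fold apart between the highest and the lowest library. Trp63, which encodes p63 (chromosome 16, 25683763 to 25892102), was at 154, 92.6, 83.0, 82.8 and 302 CPM, also highest in SCC 5. Ltf, the secreted iron-binding protein lactoferrin (chromosome 9, 111019271 to 111042767), was at 2846, 7148, 1440.1, 2823 and 1942 CPM and had its highest value in SCC 2 instead. In normal lung Krt6a had no count in any library, and Krt5, Krt4, Trp63 and Ltf reached at most 6.05, 0.877, 5.33 and 30.3 CPM. Every SCC library lay above every normal library for each of these 5 genes. The expected background on them was at most 9.30% of the summed counts (Trp63). In SCC 3 and SCC 4 taken alone it was 27.4 and 28.9 CPM for Trp63, of 83.0 and 82.8 CPM counted.

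**Figure D2:**
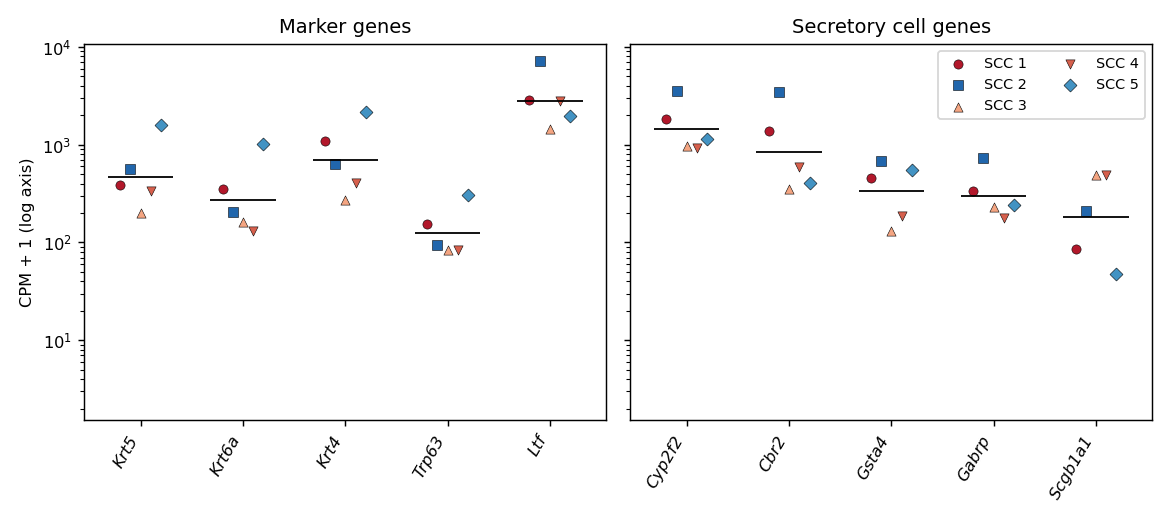
Levels of the marker genes (left) and of the 5 most abundant genes of the club and secretory cell list (right) in each SCC library, as CPM + 1 on a log axis, with a line at the geometric mean. The keratins and Trp63 are highest in SCC 5, and Ltf, Cyp2f2, Cbr2, Gsta4 and Gabrp in SCC 2.

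Of 38 measured genes on the keratinization list, 30 were highest in SCC 5 (below). Promoters of genes on this list are shown because some of them hold short motifs that the list was not chosen by. The windows are from RefSeq (GRCm38.p6, minus strand for all 3 genes) and run from 250 bases before to 50 after the annotated start. Capitals mark matches on either strand to TGANTCA or to TATAAA, the TATA box. TGANTCA stands for the site of AP-1 (the Fos and Jun factors) with any base (N) allowed in the middle. The windows are those of Sprr1a, a small proline-rich envelope protein (chr3:92485832-92486131), Krt13, a keratin of the upper layers (chr11:100121517-100121816), and Krt5 for comparison (chr15:101712856-101713155).
Sprr1a: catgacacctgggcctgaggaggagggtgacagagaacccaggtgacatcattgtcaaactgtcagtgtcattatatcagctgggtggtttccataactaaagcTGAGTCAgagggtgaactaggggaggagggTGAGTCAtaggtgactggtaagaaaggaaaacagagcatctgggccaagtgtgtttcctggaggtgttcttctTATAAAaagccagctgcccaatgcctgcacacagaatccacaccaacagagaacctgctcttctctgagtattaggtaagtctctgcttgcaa
Krt13: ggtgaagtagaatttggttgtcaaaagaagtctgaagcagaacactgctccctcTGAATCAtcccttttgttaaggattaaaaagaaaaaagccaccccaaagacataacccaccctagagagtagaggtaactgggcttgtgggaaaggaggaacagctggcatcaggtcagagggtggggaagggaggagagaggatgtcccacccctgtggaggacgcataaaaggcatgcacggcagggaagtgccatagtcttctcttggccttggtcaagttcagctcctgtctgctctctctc
Krt5: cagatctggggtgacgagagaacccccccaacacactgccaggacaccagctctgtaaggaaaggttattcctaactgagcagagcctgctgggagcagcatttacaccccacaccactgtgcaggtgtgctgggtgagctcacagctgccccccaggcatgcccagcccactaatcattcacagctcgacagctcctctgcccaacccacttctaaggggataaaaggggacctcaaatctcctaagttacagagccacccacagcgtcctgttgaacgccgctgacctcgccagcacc
Sprr1a held 2 matches to TGANTCA, both with G in the middle, and 1 TATA box. Krt13 held 1 match to TGANTCA, with A in the middle, and Krt5 held neither motif. Of 46 keratinization genes with a window in the table (of 66 listed), 17 (37.0%) held an AP-1 match and 18 (39.1%) a TATA box, against 7.93% and 14.2% of 27025 windows of all genes. Of 18 basal cell genes with a window none held an AP-1 match and 2 (11.1%) a TATA box, and of 23 club cell genes 2 (8.70%) and 7 (30.4%) did. The AP-1 letters read the same on both strands apart from their middle base. Windows were taken for listed genes whether or not they reached 20 CPM. A match describes these letters and not binding.

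Among single genes, RNAs that stay in the nucleus and genes of little known lung function headed the ranking by CPM. Malat1, a nuclear long noncoding RNA, was at 24914, 45281, 9078, 10137 and 31310.3 CPM in SCC 1 to SCC 5, and Neat1, the scaffold of paraspeckles, at 4019, 7057, 1365, 1303 and 5094 CPM. Both were lowest in SCC 3 and SCC 4. Mrgpra6, a gene annotated as a sensory neuron receptor, took first place with 44029, 9730.1, 49452, 48389.6 and 9082 CPM. It was 5.45-fold higher in SCC 3 than in SCC 5, and the 3 libraries of high receptor signal were above the other 2. Mrgpra6 lies outside the receptor gauge, and its expected background by length was under 0.01% of its level. Kcnq1ot1, the imprinted antisense RNA, was at 5662, 1699.6, 9016, 7436 and 1447 CPM, and the pseudogene Gm17821 at 14009, 3534, 27628, 24346 and 3777 CPM. Olfr856-ps1, a pseudogene of an olfactory receptor, was at 5407, 722, 5683, 5219 and 591 CPM and the noncoding RNA 4930470H14Rik at 4625, 763, 5538, 5434 and 639 CPM. These 4 followed the order of Mrgpra6, with SCC 1, SCC 3 and SCC 4 above SCC 2 and SCC 5, and background shares from 0.0241% to 3.73%. In normal lung the highest level was 3628 CPM for Mrgpra6, 1721 CPM for Gm17821 and 1200.3 CPM for Kcnq1ot1. How reads that map to several places were counted is not stated, which leaves the level of pseudogenes and of genes with near-identical copies uncertain.

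Ranked by CPM per kb of exon, which allows levels of different genes to be compared, Mrgpra6 again came first (29456 CPM per kb), and Ltf was the first gene of known epithelial secretion at 939 CPM per kb. S100a11, a calcium-binding protein of the envelope and cell border, stood at 1538 CPM per kb, with 876, 1150.5, 350.1, 378 and 1176 CPM in SCC 1 to SCC 5. Cbr2, a carbonyl reductase of club cells, reached 932 CPM per kb with 1362, 3471, 349, 594 and 408 CPM, and Cyp2f2, a cytochrome P450 of club cells, 829 CPM per kb with 1833, 3523, 972, 929 and 1136 CPM. Among the markers Krt4 stood at 425, Krt5 at 280, Krt6a at 154 and Trp63 at 17 CPM per kb.

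Steadiness across the libraries was rare. Among the 8799 genes of at least 20 CPM the highest library was 3.86-fold (median) above the lowest, and the SD of log2 CPM was 0.783 (median). Of 1452 genes whose mean reached 100 CPM, 23 (1.58%) stayed within 1.5-fold over the 5 libraries and 135 (9.30%) spanned at least 8-fold. All 23 were protein coding. They included Myo5a, a motor of vesicle transport, at 158, 200.3, 182, 184 and 173 CPM in SCC 1 to SCC 5, the smallest spread of all (SD of log2 CPM 0.125). Cflar, an inhibitor of caspase 8 signalling, was at 231, 247, 202, 275 and 252 CPM. Ssh2, a phosphatase of cofilin, was at 109.8, 137, 111, 123 and 132 CPM. The chromatin genes Setd1b and Ino80d were at 156, 139, 135, 180.2 and 143 and 153, 195, 141, 147 and 143 CPM, and Cic, a transcriptional repressor, at 148, 193, 141, 161 and 179.8 CPM. Their exon models are long (12068 bases for Setd1b and 17713 for Ino80d), and background by length was 13.2% and 17.1% of their level. A background share of 11.4% was the median over the 23 genes, against 2.56% over the 135 that spanned 8-fold or more.

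Genes often used as references were not among the steady ones. Actb, beta-actin, was at 1115, 1707, 711, 565 and 2807 CPM and Gapdh, a glycolytic enzyme, at 411, 155, 216, 181 and 581 CPM. Hprt, an enzyme of purine salvage, was at 37.5, 42.8, 10.4, 5.84 and 128 CPM, and Psmb2, a proteasome subunit, had no count in SCC 1 and 27.0, 10.9, 13.6 and 58.8 CPM in SCC 2 to SCC 5. Of 23 usual reference genes measured at 20 CPM or more, 16 were at least 2-fold above the 5-library median in SCC 5, where 17.9% of all 8799 genes were, and none had its highest level in SCC 1, SCC 3 or SCC 4. Rpl29 was an exception among ribosomal proteins, at 275, 216, 243, 205 and 213 CPM within a 1.35-fold range.

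**Figure D3:**
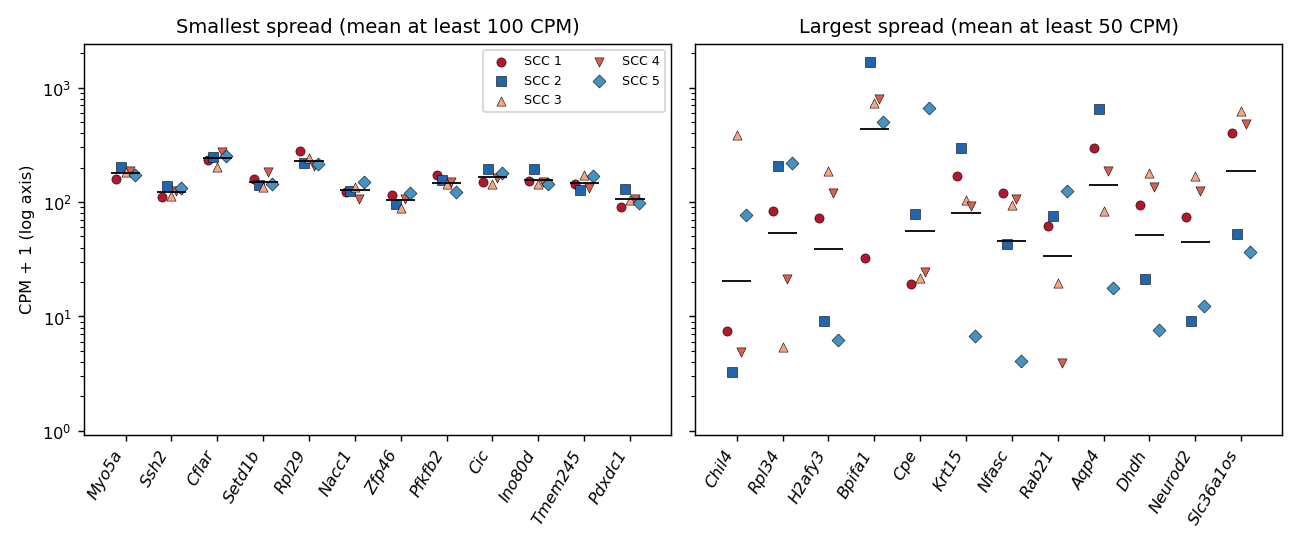
The 12 genes of smallest spread among those with a mean of at least 100 CPM (left) and 12 of the genes of largest spread among those of at least 50 CPM (right), as CPM + 1 on a log axis for each SCC library, with a line at the geometric mean. The steady genes stay within 1.5-fold, while Krt15, Bpifa1 and Chil4 span more than 50-fold.

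The widest spreads belonged to single secreted, epithelial and metabolic genes. Chil4, a chitinase-like protein, was at 6.4, 2.29, 386, 3.90 and 75.9 CPM in SCC 1 to SCC 5, so that SCC 3 stood 168-fold above SCC 2. Bpifa1, a secreted defence protein of airway epithelium, was at 31.1, 1678, 729, 799 and 502 CPM, and SCC 1 was the library without much of it. Krt15, a keratin of basal cells, was at 166, 298, 104, 91.6 and 5.70 CPM and ran against Krt5, being lowest in SCC 5 where Krt5 was highest. Aqp4, a water channel, was at 294, 654, 81.9, 187 and 16.7 CPM. Cpe, carboxypeptidase E, was at 18.3, 77.6, 20.8, 23.4 and 658 CPM and Egln3, an oxygen-sensing prolyl hydroxylase, at 13.7, 80.9, 17.5, 4.87 and 147 CPM. Tmprss11b, a serine protease of stratified epithelium, was at 9.15, 41.0, 34.4, 18.5 and 305 CPM. Cpe, Egln3 and Tmprss11b had their highest value in SCC 5. Of the 20 genes of widest spread, 7 had the 3 libraries of high receptor signal above the others, against 24.3% of all 8799 genes. These 7 were H2afy3, Dhdh, Neurod2, Slc36a1os, Nfasc, Dnah2 and Rtp3. Among these, Neurod2, a neuronal transcription factor, was at 73.2, 8.14, 167, 125 and 11.4 CPM, and the antisense RNA Slc36a1os at 396, 51.4, 623, 475 and 36 CPM. Background by length was 8.90% of the counts of Neurod2 and 61.1% for Dnah2.

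Most gene lists had their highest level in SCC 5 or SCC 2. SCC 5 carried the squamous, keratinization, glycolysis, ribosomal protein and usual reference genes at their highest level. SCC 2 did so for the club and secretory cell genes. As counted, the cilium and T cell genes were highest in SCC 1, SCC 3 and SCC 4. With exon-length background taken off, 4 of 15 measured cilium genes held this order, against 11 as counted. In each list, level is the mean over members of at least 20 CPM of log2 CPM minus the member's 5-library mean. Members named beyond the 3 of highest level and the 2 of widest spread in a list were chosen as examples after their values were seen. These lists are bulk values, and fewer cells of a type and less RNA per cell cannot be told apart. SCC 5 had the highest level of 31.8% of all 8799 genes, SCC 2 of 21.7%, SCC 1 of 20.2%, SCC 3 of 13.3% and SCC 4 of 13.0%.

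**Figure D4:**
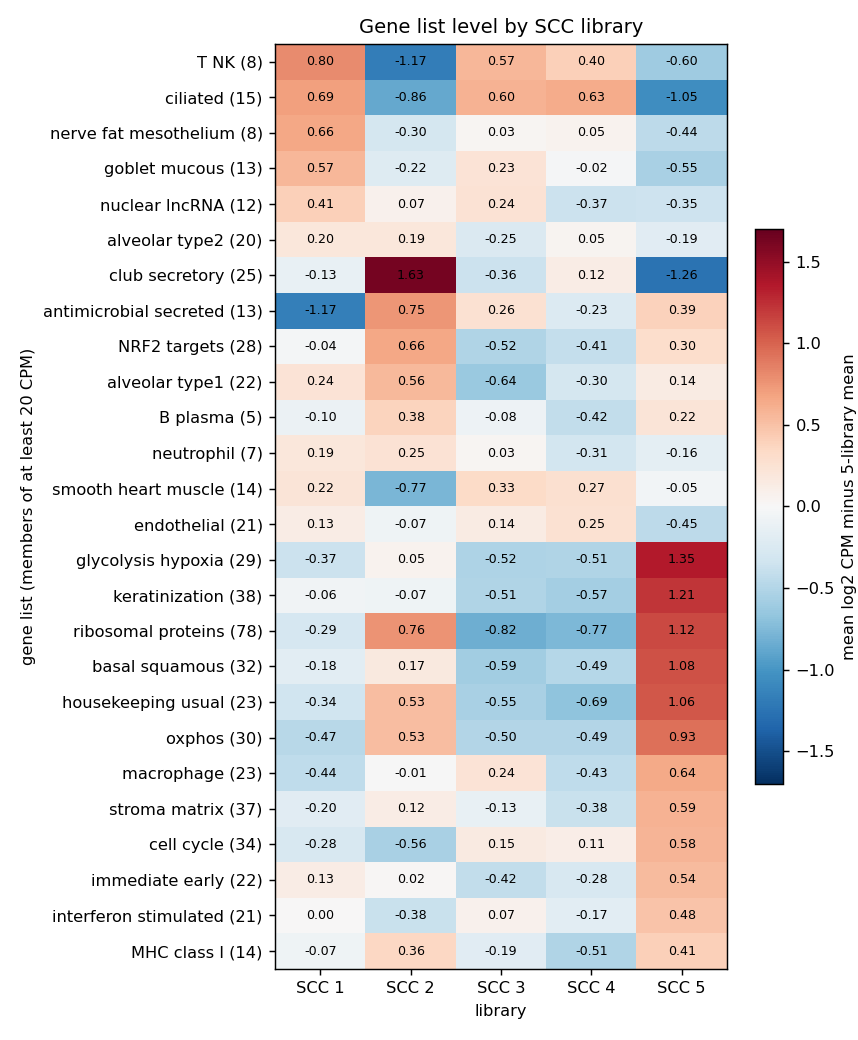
Mean log2 CPM of each gene list minus its 5-library mean in SCC 1 to SCC 5, with the number of members of at least 20 CPM in brackets, ordered by the library of the highest level. Red is higher and blue lower. Keratinization stands at 1.21 and glycolysis and hypoxia at 1.35 in SCC 5, and club and secretory genes at 1.63 in SCC 2.

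Squamous and basal cell genes were highest in SCC 5. Of 32 measured members of the basal and squamous list, 18 were at least 2-fold above the 5-library median in SCC 5, against 3 in SCC 2 and none in SCC 1, SCC 3 and SCC 4. Over all 8799 genes the shares were 7.13%, 11.3%, 3.9%, 3.73% and 17.9% in SCC 1 to SCC 5. In the list, 24 had their highest level in SCC 5, against 31.8% of all genes. A larger share of the usual reference genes (above) was at least 2-fold above the median in SCC 5 than of this list. The same holds against the keratinization and glycolysis lists below, so the rise in SCC 5 was not particular to squamous genes. Krt14, the partner of Krt5, was at 296, 254, 109, 146 and 1454 CPM in SCC 1 to SCC 5 and Perp, a desmosome protein and p53 target, at 309, 504, 146, 178 and 1351 CPM. Col17a1, a collagen of the hemidesmosome, was at 108, 191, 93.4, 89.6 and 903 CPM. Itgb4 and Itga6, the chains of the hemidesmosome integrin, were at 145, 249.6, 108, 106 and 653 CPM and 109, 262, 121, 115 and 565 CPM. SCC 5 held the highest value of each of these 5 genes. Dsg3, the desmosomal cadherin of the lower layers, was at 274, 156, 61.7, 79.9 and 570.0 CPM and Dsp, desmoplakin, at 426, 824, 331, 397 and 2235 CPM. Lamb3, a chain of laminin 332, was at 11, 35.9, 35.0, 42.9 and 286 CPM, 26-fold apart. Snai2, a transcription factor of basal and migrating cells, did not follow them, at 217, 73.5, 177, 142 and 107 CPM. Dst, which links intermediate filaments to hemidesmosomes, stayed within 1.95-fold at 416, 810.0, 429, 465 and 616 CPM.

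Of 38 measured keratinization genes, 23 were at least 2-fold above the median in SCC 5 and none was at least 2-fold below it, and 30 had their highest level there. Over all 8799 genes these shares were 17.9%, 22% and 31.8%. Sprr1a, whose promoter is printed above, was at 46.7, 27.7, 37.7, 21.4 and 278 CPM and Krt13 at 228, 172, 100.5, 183 and 681 CPM. Ppl, the envelope protein periplakin, was at 367, 419, 145, 198 and 586 CPM. Spink5, a protease inhibitor, was at 98.8, 466, 153, 180.2 and 449 CPM, with SCC 2 close to SCC 5. Klk10, a kallikrein protease, was highest in SCC 1, at 310.1, 272, 80.8, 62.3 and 161 CPM. Lor, loricrin, a terminal marker of dry skin, reached at most 2.18 CPM (SCC 3), near the level of 3 counts, and Ivl, involucrin, was at 23.8, 15.5, 28.9, 21.4 and 8.33 CPM. Ivl was lowest in SCC 5, against the direction of the list. The range of the list from the highest to the lowest library was 1.78 on the log2 scale, and 0.605 without SCC 5. For the basal and squamous list it was 1.67, and 0.777 without SCC 5.

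Genes of glycolysis and the response to low oxygen were highest in SCC 5 as well. Of 29 measured members, 19 were at least 2-fold above the median in SCC 5 (17.9% of all genes). In SCC 2 it was 7 (11.3%), and in SCC 1, SCC 3 and SCC 4 none (7.13%, 3.9% and 3.73%). Ldha, lactate dehydrogenase, was at 190.3, 229, 91.8, 75 and 565 CPM in SCC 1 to SCC 5, and Pkm, pyruvate kinase, at 133, 340.0, 131, 126 and 853 CPM. Slc2a1, the glucose transporter Glut1, was at 54.9, 41.0, 27.3, 24.4 and 272 CPM. Ndrg1, a hypoxia-induced gene, was at 69.5, 60.6, 37.7, 33.1 and 567 CPM and Ero1l, an oxidase of the endoplasmic reticulum, at 44.8, 136, 31.1, 50.6 and 360.4 CPM. Slc16a3, the lactate exporter, was at 19.2, 1.02, 16.9, 13.6 and 106 CPM, 104-fold apart. All 6 had their highest value in SCC 5. Pfkl, the liver form of phosphofructokinase, was highest in SCC 3 at 65.9, 80.9, 236, 182 and 177 CPM, and Pfkfb3, which makes its activator, was lowest in SCC 5 at 118, 74.8, 98.8, 85.7 and 44.7 CPM. The range of the list was 1.87, and 0.814 without SCC 5.

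Ribosomal protein and translation genes split the libraries as the receptor signal did. Of 78 measured members, 72 were lower in each of SCC 1, SCC 3 and SCC 4 than in both SCC 2 and SCC 5, against 27.7% of all 8799 genes. Rps3a1 was at 152, 655, 115, 129 and 639 CPM in SCC 1 to SCC 5 and Rpl4 at 176, 423, 190.0, 168 and 862 CPM. Eef1a1, an elongation factor, was at 763, 2225, 663, 541 and 1809.6 CPM. The 3 libraries did not overlap the other 2 for any of these 3 genes. Rpl21 was more even, within 1.48-fold at 360.4, 523, 374, 407 and 532 CPM. Genes of the respiratory chain behaved alike, with 20 of 30 measured members lower in the 3 libraries, for example Atp5b, a subunit of ATP synthase, at 137, 212, 91.2, 77.0 and 309 CPM. With exon-length background taken off every gene and the scaling left as it was, 72 ribosomal protein genes were again lower, against 44.7% of all genes under that setting. Ribosomal protein messages are short and have many pseudogene copies, so their counts are uncertain, and the part of the silent-gene background in this split was not tested.

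Club and secretory cell genes were highest in SCC 2. Of 25 measured members, 16 were at least 2-fold above the median in SCC 2, where 11.3% of all 8799 genes were, and 13 were at least 2-fold below it in SCC 5, where 22% of all genes were. Cyp2a5, a cytochrome P450, was at 156, 831, 51.3, 69.2 and 40.3 CPM in SCC 1 to SCC 5, Selenbp1, a selenium-binding protein, at 213, 623, 55.2, 89.6 and 31.6 CPM, and Fmo2, a flavin monooxygenase of lung, at 86.0, 463, 43.1, 79.9 and 11 CPM. Ces1d, a carboxylesterase, was at 112, 449, 70.5, 192 and 26.8 CPM. The secretoglobin Scgb3a2 was at 53.1, 297, 47, 81.8 and 18.4 CPM. All 5 were highest in SCC 2 and lowest in SCC 5. Scgb1a1, the chief secretoglobin of club cells, ran otherwise, at 84.2, 211, 484, 489.9 and 46.0 CPM, with SCC 3 and SCC 4 above SCC 2. All 5 values lay under the 7487 CPM of the lowest normal library. Reg3g, a secreted lectin that binds bacteria, was at 0, 45.5, 72.1, 52.6 and 0.88 CPM. Reg3g had no count in SCC 1, where 3 counts correspond to 2.74 CPM. The range of the list was 2.88, and 1.26 without SCC 2.

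NRF2 target genes, which detoxify electrophiles, were highest as a list in SCC 2. Of 28 measured members, 12 were at least 2-fold above the median in SCC 2, where 11.3% of all genes were. In SCC 5 it was 7 (17.9% of all genes), in SCC 1 it was 2 (7.13%), and none was in SCC 3 and SCC 4. Gstm1, a glutathione transferase, was at 383, 1013, 211, 177 and 605 CPM, and Me1, the cytosolic malic enzyme, at 42.1, 259.6, 73.7, 68.2 and 122 CPM, both highest in SCC 2. Gsr, glutathione reductase, was at 94.2, 77.4, 28.4, 33.1 and 219 CPM and Akr1b8, an aldo-keto reductase, at 0.91, 26.7, 10.9, 17.5 and 68.0 CPM, both highest in SCC 5. Gsta3 was at 37.5, 67.7, 10.9, 30.2 and 1.75 CPM, with its lowest value in SCC 5 as for the club cell genes.

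Secreted defence genes were highest as a list in SCC 2 and lowest in SCC 1, at 0.75 and -1.17 from the 5-library mean on the log2 scale, a range of 1.92, which was 1.03 without SCC 1. SCC 2 was the highest library for this list in 10 of 12 alternative settings, and SCC 3 in the others. Of 13 measured members, 6 were at least 2-fold above the median in SCC 2 (11.3% of all genes), 4 in SCC 5 (17.9%), 2 in SCC 3 (3.9%), 1 in SCC 1 (7.13%) and none in SCC 4. Their highest level was in SCC 5 for 5 members (31.8% of all genes), SCC 2 for 4 (21.7%), SCC 3 for 3 (13.3%) and SCC 1 for 1 (20.2%). Wfdc2 was highest in SCC 2, at 45.7, 266, 72.6, 119 and 102 CPM, and Pglyrp1, a peptidoglycan-binding protein, in SCC 1, at 794, 498, 155, 119.8 and 356 CPM. Mt2, a metallothionein, was highest in SCC 5 at 4.57, 30.5, 6.55, 11.7 and 121 CPM. Chil3, the sister gene of Chil4 and a product of macrophages, was highest in SCC 3 at 22, 159, 378, 84.7 and 56.1 CPM, as Chil4 was. Lyz2, lysozyme, was nearly level at 326, 396, 316, 228 and 420.1 CPM. Chil3 and Chil4 are near-identical genes, and their counts may share reads.

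Genes of the motile cilium were high in SCC 1, SCC 3 and SCC 4, where the silent-gene background is high. Of 15 measured members (of 47 in the table), 11 were higher in each of the 3 libraries than in both others, against 24.3% of all 8799 genes. Dnah5, a dynein heavy chain of the outer arm, was at 30.2, 10.9, 74.8, 67.2 and 12.3 CPM in SCC 1 to SCC 5, and Hydin, a protein of the central pair, at 58.5, 31.1, 109, 112 and 29.8 CPM. The expected background was 81.6% of the counts of Dnah5 and 51.3% of that of Hydin, and above 50% for 9 of the 15. With exon-length background taken off and the scaling left as it was, 4 of the 15 were higher in the 3 libraries, against 12.5% of all genes under that setting. The summed level of the list, 1468, 710.5, 1369, 1416 and 755 CPM as counted, became 809, 587, 595, 633 and 656 CPM. Foxj1, the master regulator of the motile cilium, was at 25.6, 33.3, 15.8, 20.4 and 2.63 CPM and did not set the 3 libraries apart. Tubb4b, a tubulin that other cells make too, was highest in SCC 5 at 166, 192, 61.2, 82.8 and 343 CPM.

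T and NK cell genes had the same order, with 6 of 8 measured members higher in each of SCC 1, SCC 3 and SCC 4, against 24.3% of all genes. Bcl11b, a T cell transcription factor, was at 300.1, 54.5, 87.4, 170.4 and 37.3 CPM and Cd8a, the receptor chain of cytotoxic T cells, at 21.0, 3.05, 49.7, 50.6 and 7.02 CPM. Cd3e, a chain of the T cell receptor complex, was at 135, 8.40, 24.6, 7.79 and 34.2 CPM, with SCC 1 alone high. Cd3d, another chain, was at 86.9, 24.4, 97.2, 112 and 79.8 CPM. Cd3g, a chain of the same complex, had no count in SCC 1 and reached 13.6 CPM in SCC 4. The expected background was 13.6% of the counts of Bcl11b and 30.3% of that of Cd8a. With exon-length background taken off and the scaling left as it was, the count was again 6 of 8, against 12.5% of all genes under that setting. As counted, the summed level of all listed members was 904, 233, 718, 696 and 281 CPM in SCC 1 to SCC 5, and 229 to 591 CPM in normal lung. The background share of the summed members ran from 4.41% (Cd3d) to 241% (Skap1). Background was not taken off these sums, so they do not show whether SCC 1, SCC 3 and SCC 4 exceeded normal lung.

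Proliferation genes did not share one order. Mki67, a protein of dividing cells, was at 31.1, 131, 149, 150.0 and 464 CPM in SCC 1 to SCC 5, Top2a, a topoisomerase of mitosis, at 18.3, 23.9, 33.3, 24.4 and 113 CPM, and Anln, a protein of the cleavage furrow, at 5.49, 31.1, 26.2, 28.2 and 100.4 CPM. These were highest in SCC 5 and lowest in SCC 1. Tyms, thymidylate synthase, was lowest in SCC 2 and SCC 5, at 429, 112, 487, 557 and 113 CPM, and so was Hmmr, a spindle protein, at 97.9, 31.1, 151, 175 and 66.2 CPM. E2f1, a regulator of entry into S phase, was high in SCC 1 alone, at 113, 12.5, 25.1, 7.79 and 10.1 CPM. Of 34 measured members, 11 were at least 2-fold above the median in SCC 5, 3 in SCC 1, 1 in SCC 2, 1 in SCC 3 and none in SCC 4. Over all 8799 genes the shares were 17.9%, 7.13%, 11.3%, 3.9% and 3.73% in the same order. Background by length was 3.74% of the counts of Tyms, 8.0% for Mki67 and 31.9% for Top2a.

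Matrix genes were highest in SCC 5, and macrophage genes less uniformly so. Arg1, arginase, a gene of tumour macrophages, was at 95.1, 186, 43.1, 74.0 and 796 CPM, and Mmp12, a protease of macrophages, at 49.4, 23.2, 211, 55.5 and 278 CPM. Ctss, cathepsin S, was at 47.6, 130.3, 139, 61.4 and 353 CPM, while Cx3cr1, a chemokine receptor of monocytes, was highest in SCC 3 at 164, 86.0, 338, 246 and 146 CPM. Of 23 measured macrophage genes, 7 were at least 2-fold above the median in SCC 5, where 17.9% of all genes were, 4 in SCC 3 (3.9% of all genes) and 2 in SCC 1 (7.13%). SCC 5 was the highest library for the macrophage list in 8 of 12 alternative settings, and SCC 3 in the others. Col1a1, the main collagen of stroma, was at 102, 108, 93.9, 53.6 and 467 CPM, Fn1, fibronectin, at 465, 906, 537, 389.6 and 1341 CPM, and Tnc, tenascin C, at 22.9, 95.7, 139.8, 84.7 and 246 CPM. Of 37 matrix genes, 15 were at least 2-fold above the median in SCC 5 (17.9% of all genes) and 5 in SCC 2 (11.3%). Irf7, an interferon-induced factor, was high in SCC 1 and SCC 5, at 113, 34.9, 33.3, 16.6 and 126 CPM, while Ifih1, a sensor of viral RNA, was level at 27.4, 31.1, 32.2, 34.1 and 36.4 CPM, with a background share of 40.1%.

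The summed levels of the alveolar and endothelial lists were below those of normal lung in all 5 libraries. The type 2 list summed to 1803 to 2741 CPM in SCC and 14757 to 17478 CPM in normal lung, the type 1 list to 1486 to 4124 and 9421 to 12383 CPM, and the endothelial list to 1010.2 to 1505 and 10306 to 13294 CPM. Single members differed from this, such as Prox1, a factor of lymphatic endothelium named after its values were seen, at 51.2, 18.1, 42, 42.9 and 6.58 CPM in SCC 1 to SCC 5 and at most 21.9 CPM in normal lung, with a background share of 51.6%. Sftpc, a surfactant protein made by type 2 cells, was at 147, 213, 86.3, 233 and 81.6 CPM in SCC 1 to SCC 5, against at least 2588 CPM in normal lung. The type 2 list had the smallest range of all lists, 0.447 on the log2 scale over 20 members. Calcrl, a receptor of endothelium, was at 178, 301, 189, 213 and 214 CPM, and Pecam1, an adhesion molecule of endothelium, at 25.6, 53.2, 54.6, 39 and 33.8 CPM. The alveolar type 1 list ran from -0.64 in SCC 3 to 0.56 in SCC 2. Its most abundant member, Aqp5, a water channel also of glands, was at 596, 673, 192, 184 and 908 CPM. Aqp5 reached at most 148 CPM in normal lung, so it ran against the sum of its list. The haemoglobin genes Hbb-b1 and Hbb-bs were at 3.66, 0.25, 0, 3.90 and 0.88 CPM and 4.57, 0.51, 0, 0 and 0 CPM, against at least 11.1 and 10.1 CPM in normal lung. A level of 3 counts is 0.763 to 2.92 CPM in the SCC libraries.

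Over the 500 most variable genes of at least 20 CPM, the first of the principal components took up 71.5% of variance, the second 14.2% and the third 12.3%. On the first, SCC 1, SCC 3 and SCC 4 scored -29.2, -22.9 and -22.9, and SCC 2 and SCC 5 28.3 and 46.7, the same division as the receptor signal. On the second, SCC 2 scored 24.8 and SCC 5 -18.3, with Fmo2, Aqp4, Krt15, Scgb3a1 and Cyp2a5 among the 10 genes of highest weight toward SCC 2 and Slc16a3, Chil4 and Tmprss11a among those toward SCC 5. The third set SCC 1 (22.9) against SCC 3 and SCC 4 (-11.1 and -13.8), with Cd3e and Hspa1b, a heat shock protein at 111, 31.3, 17.5, 9.74 and 164 CPM, toward SCC 1 and Reg3g and Bpifa1 away from it. With background subtracted the first component held 58.7% (coding length) or 60.5% (exon length).

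Over all 8799 genes, 2136 (24.3%) were higher in each of SCC 1, SCC 3 and SCC 4 than in both SCC 2 and SCC 5, and 2438 (27.7%) were lower. The median background share was 31.4% for the higher genes, 11.6% for the lower and 19.8% for the rest. After exon-length subtraction and new scaling, 1489 (20.6%) of 7236 genes were higher and 2113 (29.2%) lower. The split depended on the scaling: with TMM factors from all genes without a filter 1215 were higher and 3302 lower, with upper-quartile factors 2737 and 2030, and with TMM over the SCC libraries alone 2844 and 2175.

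Xist and the Y-linked genes set SCC 4 apart from SCC 3, the library closest to it over all genes. Xist, the RNA of the inactive X chromosome in female cells (chromosome X, 103460366 to 103483254), was at 523, 1827, 491, 70.1 and 1482 CPM in SCC 1 to SCC 5. Ddx3y, an RNA helicase of the Y chromosome, was at 1.83, 0, 2.18, 26.3 and 0.44 CPM, and Kdm5d, a histone demethylase, at 0, 0, 0, 11.7 and 0 CPM. Uty and Eif2s3y had counts in SCC 4 alone, at 3.90 and 2.92 CPM. SCC 4, the closest library to SCC 3, was thus the only one of the 5 with counts on Kdm5d, Uty and Eif2s3y and the lowest in Xist. Its Xist level was near the 61.7 CPM expected from its background by exon length. In SCC 4 the same rate gives 52.2, 33.7 and 14.3 CPM for Kdm5d, Uty and Eif2s3y, more than was counted. Ddx3y was above the 17.9 CPM expected there. A level of 3 counts is 2.92 CPM in SCC 4, so Uty and Eif2s3y rest on few reads. For Kdm5d the same rate gives 47.9 CPM in SCC 1 and 49.4 CPM in SCC 3, where no read was counted and 3 counts correspond to 2.74 and 1.64 CPM. Uty and Eif2s3y had no count in SCC 1 and SCC 3 either, so the background gauged on receptor genes was not seen on these 3 Y-linked genes there. The labels do not give the sex of the animals.

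**Figure D5:**
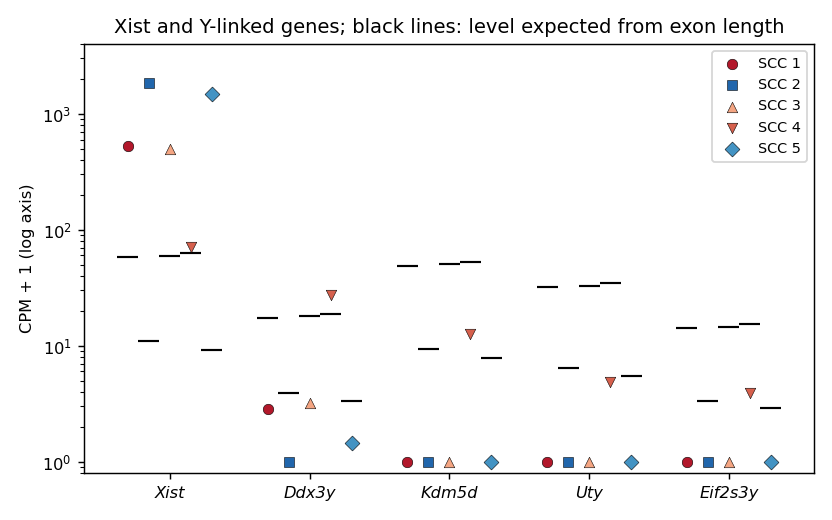
Levels of Xist and 4 Y-linked genes in each SCC library, as CPM + 1 on a log axis, with black lines at the level expected from the receptor signal by exon length. SCC 4 is at 70.1 CPM for Xist, near its line, and is the only library with counts on Kdm5d, Uty and Eif2s3y.

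Whether SCC libraries differed among themselves more than normal ones was tested gene by gene, by comparing absolute deviations of log2 CPM from the group mean with limma, for genes of at least 20 CPM in both groups. The median deviation was 0.619 in SCC and 0.431 in normal lung over 6433 genes, and 69.5% of genes had the larger deviation in SCC. Total counts were 1004105 to 3691806 in SCC and 1457641 to 6817106 in normal lung. The part of depth and silent-gene background in these medians was not tested. After Benjamini-Hochberg adjustment by limma no gene passed 0.05 in either direction (0% larger and 0% smaller, smallest adjusted p = 0.0672), with 1082 larger and 132 smaller in SCC at an unadjusted p under 0.05. Cbr2 had a deviation of 1.24 in SCC and 0.184 in normal lung (limma adjusted p = 0.0951, n = 5 each), and Actb of 0.813 and 0.0587 (limma adjusted p = 0.119, n = 5 each). The gene of smallest adjusted p, Xist, pointed the other way, with 1.42 in SCC and 4.64 in normal lung. Xist ran from 0.594 to 1718 CPM in the normal libraries, and the labels do not give the sex of the animals. The count of larger calls was not stable, since leaving out SCC 1, SCC 3 or SCC 4 gave 575, 188 and 166 and leaving out SCC 2 or SCC 5 gave 9 and 6.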

How the data were processed

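The deposited table holds unnormalized counts, whole numbers of reads on each of 24421 gene symbols, in 10 libraries. Per the submitters' processing notes, the authors used HTSeq 0.6.1, TopHat2 2.0.1, cutadapt 1.9.1 and DESeq2, with build mm10. No source used here gives the annotation, the strand setting or the treatment of multi-mapping reads. In R 4.3.3, genes were filtered with filterByExpr (edgeR 4.0.16, 13203 left), TMM factors were computed over all 10 libraries, and counts were turned into CPM of the scaled total and log2 CPM with a prior count of 2. Counting error limits low genes, since 3 counts are 0.763 to 2.92 CPM in SCC libraries.

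Lengths came from GENCODE M21 (GRCm38), matched for 23384 symbols directly and 651 by an older symbol, with 386 unmatched. The receptor signal sets the highest 2% of the receptor genes to the 98th percentile. Spread was compared with limma 3.58.1 and tried on simulated data. The simulated spreads lay farther apart than the medians seen here, and background did not differ between simulated libraries of a group. The trial therefore does not cover differences as small as those medians. DESeq2 1.42.0 gave alternative size factors. Where nothing says that libraries came from separate mice, p-values measure only the spread between these libraries. Named genes are the 15 highest by CPM and by CPM per kb, the 20 steadiest and the 20 most variable, and per list the 3 most abundant and 2 most variable, from which examples are given. Structural RNA was left out of the ranking. A gene that this rule names is not reported here. The members, gene lists and the division of SCC 1, SCC 3 and SCC 4 from SCC 2 and SCC 5 were chosen with earlier results of these data known.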

Additional observations from a re-analysis of the deposited data

Results flagged for a closer look

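Of 150 values examined (119 genes, the gene lists and 5 library measures), 8 had 1 library of the 5 far from the rest by Dixon's rule, and chance alone flags about 1 in 20. SCC 4 stood above the others for Kdm5d (11.7 CPM), Uty (3.90 CPM) and Eif2s3y (2.92 CPM), where the other 4 libraries had no count. Each of these values was below the level expected in SCC 4 from background by exon length. SCC 5 stood above the others for Ndrg1 (567 CPM) and for the keratinization list (1.21 above the 5-library mean on the log2 scale). SCC 2 was low for Cd3d (24.4 CPM) and high for Ino80d (195 CPM), the latter a gene with a small spread over all. SCC 1 was high for the haemoglobin gene Hbb-bs (4.57 CPM), a value near the level of 3 counts.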

How the results depend on the processing

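The number of steady genes (23) was 45 with upper-quartile factors, 38 after thinning to the smallest library, 189 at a minimum of 1 CPM and 2 at a minimum 2.5 times higher. Chosen after seeing the data, TMM without the filter on low counts gave 8 and TMM over the SCC libraries alone 41. The number of variable genes (135) was 10744 at 1 CPM, 52 at the higher minimum and 283 with background subtracted by exon length, also chosen after seeing the data. Genes with SCC 1, SCC 3 and SCC 4 above SCC 2 and SCC 5 (2136) numbered 8305 at 1 CPM, 581 at the higher minimum and 1215 with unfiltered TMM, and those below (2438) numbered 1494 at the higher minimum. The first component (71.5%) was 58.7% with background subtracted by coding length and 60.5% by exon length. The range of the keratinization list was 0.969 at 1 CPM, and that of the cell cycle list (1.14) was 1.99 after exon-length subtraction. Genes of larger spread in SCC (0) numbered 12 after thinning, 219 at the higher minimum, 228 with unfiltered TMM, 468 after exon-length subtraction and 311 by an edgeR dispersion over 4 times apart. Those of smaller spread (0) numbered 2, 2, 5 and 1 in the first 4 of these. The cause was not tested.

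With 1 library left out in turn, steady genes ran from 22 to 77 (without SCC 2; 61 without SCC 5), variable genes from 57 (without SCC 5) to 128, genes above from 1630 to 3390 (without SCC 2; 3290 without SCC 5) and genes below from 3045 to 3685 (without SCC 2), counts whose criterion loosens with fewer libraries. The first component ran from 67.9% to 81.5%. List ranges ran from 0.777 to 1.82 for basal and squamous genes, from 0.605 to 2.05 for keratinization, from 1.26 to 2.91 for club cell genes and from 0.814 to 2.03 for glycolysis, the lowest without SCC 2 for club cell genes and without SCC 5 for the others. Genes of larger spread ran from 0 (without a normal library) to 575 (without SCC 1; 188 without SCC 3, 166 without SCC 4, 9 without SCC 2 and 6 without SCC 5) and of smaller spread from 0 to 19 (without SCC 1). In the 12 settings that kept all 5 libraries, SCC 5 was the highest library for the basal, keratinization, glycolysis and ribosomal lists and SCC 2 for the club cell list. No paired analysis was made, because the labels do not say which libraries share an animal. Depth limits genes near 3 counts.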

Other observations

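Genes outside the groups above also differed between libraries. Msln, mesothelin, a surface protein of mesothelium and many carcinomas, was at 131, 516, 67.7, 51.6 and 163 CPM in SCC 1 to SCC 5, highest in SCC 2. Upk1b, a uroplakin, was at 308, 229, 59.0, 63.3 and 102 CPM. Both reached at most 13.6 and 4.90 CPM in normal lung. Muc4, a membrane mucin, was at 961, 1113, 504, 429 and 958 CPM, within 2.60-fold, while Gcnt3, an enzyme of mucin glycan branching, was at 99.7, 42, 22.9, 32.1 and 0.44 CPM. Hspa1b, a heat shock protein, and Junb, an AP-1 subunit, were highest in SCC 5, at 164 and 192 CPM, and lowest in SCC 4, at 9.74 and 18.5 CPM.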
